A study of Mus musculus with 10 samples.

Results

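The 39 protein-coding Hox genes of the mouse were followed in ATAC-seq peak lists of adult neural stem cell cultures. They are the GENCODE genes of GRCm38 whose names carry one of the cluster letters a to d and a number, out of 21842 protein-coding genes. Peaks were taken from the Hoxa, Hoxb, Hoxc and Hoxd clusters, each read from the start of its first gene to the end of its last gene plus 10000 bp on either side. These windows cover 571.815 kb and held 196 listed peaks, which merged into 51 of the 137454 peak regions of the series.

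The cultures came from the subependymal zone (SEZ) of 10 week old mice, the adult forebrain niche that produces olfactory neurons. The cells were either wild type (WT) or null for Cdkn1b, the gene of the cell cycle inhibitor p27 (p27KO), and both genotypes were taken in 2 states. Proliferating cells (PRO) grew as neurospheres in EGF at 20 ng/ml and FGF at 10 ng/ml and were taken at 3 days in vitro according to labels and methods alike, while the results text of the study names a longer time. Differentiating cells (DIFF) had spent 2 days on Matrigel with FGF and then 24 h without either mitogen, in medium with 2% fetal bovine serum. There were 3 libraries of each state in WT and 2 of each state in p27KO, each made from 50000 cells. PRO and DIFF therefore differ in substrate and serum as well as in mitogens. The study calls its libraries biological replicates, but the labels do not tie each to its own animal, and p-values measure the spread between these libraries.

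The peak lists held 57534 to 91801 peaks. The number of reads is not part of them, so a missing peak means that none was called at that depth. The description field of the p27KO libraries speaks of WT cells, against their titles and genotype, so the targeted gene was read first. A peak lay over the Cdkn1b start in 6 of 6 WT and in 0 of 4 p27KO libraries. The same 6 and 0 were found at the Y-linked genes Ddx3y, Eif2s3y and Uty, so genotype and the sex of the source animals cannot be told apart. All 8 neural stem and progenitor markers, among them Sox2, Nes and Egfr, had a promoter peak in all 10 libraries. Of 4 markers each, 3 did for neurons and for microglia, 2 for fibroblasts and mural cells, 1 for oligodendrocytes and 0 for endothelium. The part of such cells in the Hox values was not tested.

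Hox genes encode homeodomain transcription factors that set position along the head to tail axis of the embryo. They lie in clusters whose gene order matches the order in which they act along that axis, from group 1 near the head to group 13 at the tail. In the nervous system they are known from the hindbrain and spinal cord, whereas the forebrain forms in front of their domain. Silent clusters carry the Polycomb mark H3K27me3, and CTCF sites divide active from silent stretches. HOX proteins bind DNA with partners of the PBX, MEIS and PKNOX families.

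The summits of 7 regions show where the accessible sites of the clusters lie. Each line gives bases of the GRCm38 plus strand, 5′ to 3′, and none of them lies in an annotated UTR. The Hoxd8 stretch is the start of its coding sequence, within the peak, and the others are centred on a summit. Capitals mark either a match of the CTCF core motif with up to 2 mismatches or the HOX-PBX site TGATNNAT, as said for each set.

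The peak 227 bp upstream of the Hoxa4 start, at chr6:52191905-52192055, is shown because it carried a HOX-PBX site, in capitals.

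Hoxa4: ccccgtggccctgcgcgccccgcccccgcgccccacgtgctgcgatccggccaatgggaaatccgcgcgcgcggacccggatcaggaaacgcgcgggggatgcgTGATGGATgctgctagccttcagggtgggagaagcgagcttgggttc

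An exact CTCF core match was found in 0 of the 51 Hox regions, in the 301 bp around the summit. A match with up to 2 mismatches was found in 30.6% of all regions tested. In 5 of the regions shown, from 3 clusters, the bases printed around the summit held a match with 2 mismatches, in capitals. They lie 2977 bp upstream of the Hoxb8 start (chr11:96278853-96279003), 2253 bp inside Hoxb6 (chr11:96294654-96294804), 1845 bp upstream of the Hoxd12 start (chr2:74673093-74673243), in an intron 4045 bp from the Hoxd3 start (chr2:74715897-74716047) and 9754 bp upstream of the Hoxa13 start (chr6:52270559-52270709).

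Hoxb8: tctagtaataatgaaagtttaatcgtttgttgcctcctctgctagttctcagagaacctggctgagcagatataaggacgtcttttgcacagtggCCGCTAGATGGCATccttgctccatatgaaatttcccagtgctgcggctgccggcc
Hoxb6: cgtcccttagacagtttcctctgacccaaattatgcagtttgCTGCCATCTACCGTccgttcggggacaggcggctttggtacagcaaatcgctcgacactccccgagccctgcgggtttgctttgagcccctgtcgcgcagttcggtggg
Hoxd12: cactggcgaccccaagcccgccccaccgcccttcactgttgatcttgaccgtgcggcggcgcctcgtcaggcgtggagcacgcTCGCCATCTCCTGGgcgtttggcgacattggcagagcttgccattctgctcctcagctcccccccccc
Hoxd3: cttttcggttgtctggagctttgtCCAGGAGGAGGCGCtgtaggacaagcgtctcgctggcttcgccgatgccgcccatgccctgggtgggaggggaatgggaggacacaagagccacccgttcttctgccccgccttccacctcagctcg
Hoxa13: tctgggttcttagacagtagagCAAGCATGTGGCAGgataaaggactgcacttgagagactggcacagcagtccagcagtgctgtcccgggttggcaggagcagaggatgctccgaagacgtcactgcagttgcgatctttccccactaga

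The Hoxd8 stretch (chr2:74705548-74705698) is shown because its region had a peak in every PRO and in no DIFF library. It begins at the annotated start codon and holds neither motif. The summit lies outside this stretch, and a CTCF core match with 2 mismatches lay 22 bp from the summit.

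Hoxd8: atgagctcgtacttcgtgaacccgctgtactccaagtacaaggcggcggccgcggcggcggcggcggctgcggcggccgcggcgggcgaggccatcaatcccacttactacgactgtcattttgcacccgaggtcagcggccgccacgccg

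Peaks were counted first, to see how much of each cluster was accessible. Hoxa held 99 of the 196 peaks, Hoxd 46, Hoxc 26 and Hoxb 25, although Hoxa is shorter than Hoxb. In such bulk libraries, a site open in fewer cells and a site less open in each cell cannot be told apart. Of the 20 Hoxa regions, 4 had a peak in all 10 libraries. This was so for 1 of 10 Hoxc regions, 0 of 15 Hoxd regions and 0 of 6 Hoxb regions. Of the 51 Hox regions, 21 (41.2%) were found in a single library, against 27.8% of all regions of the series. A peak in all 10 libraries was found in 9.80% of Hox regions and in 27.5% of all regions.

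The peaks in the clusters were narrow and weak. A region had a median width of 260 bp, against 331 bp for all regions. The fold enrichment of a peak, its pileup of reads at the summit over the local background of the same library, had a median of 4.43 in the clusters. Since this ratio is scaled within a library, each peak was also given its percentile among all peaks of its list. The 196 Hox peaks had a median percentile of 36.1, and by cluster the median was 47.0 in Hoxa, 32.4 in Hoxb, 28.2 in Hoxd and 24.2 in Hoxc. The pileup behind each could be recovered as a whole number for all 196, and ranged from 10 to 59 with a median of 18. The weakest peaks in the lists had pileups of 9 to 11.

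**Figure D1:**
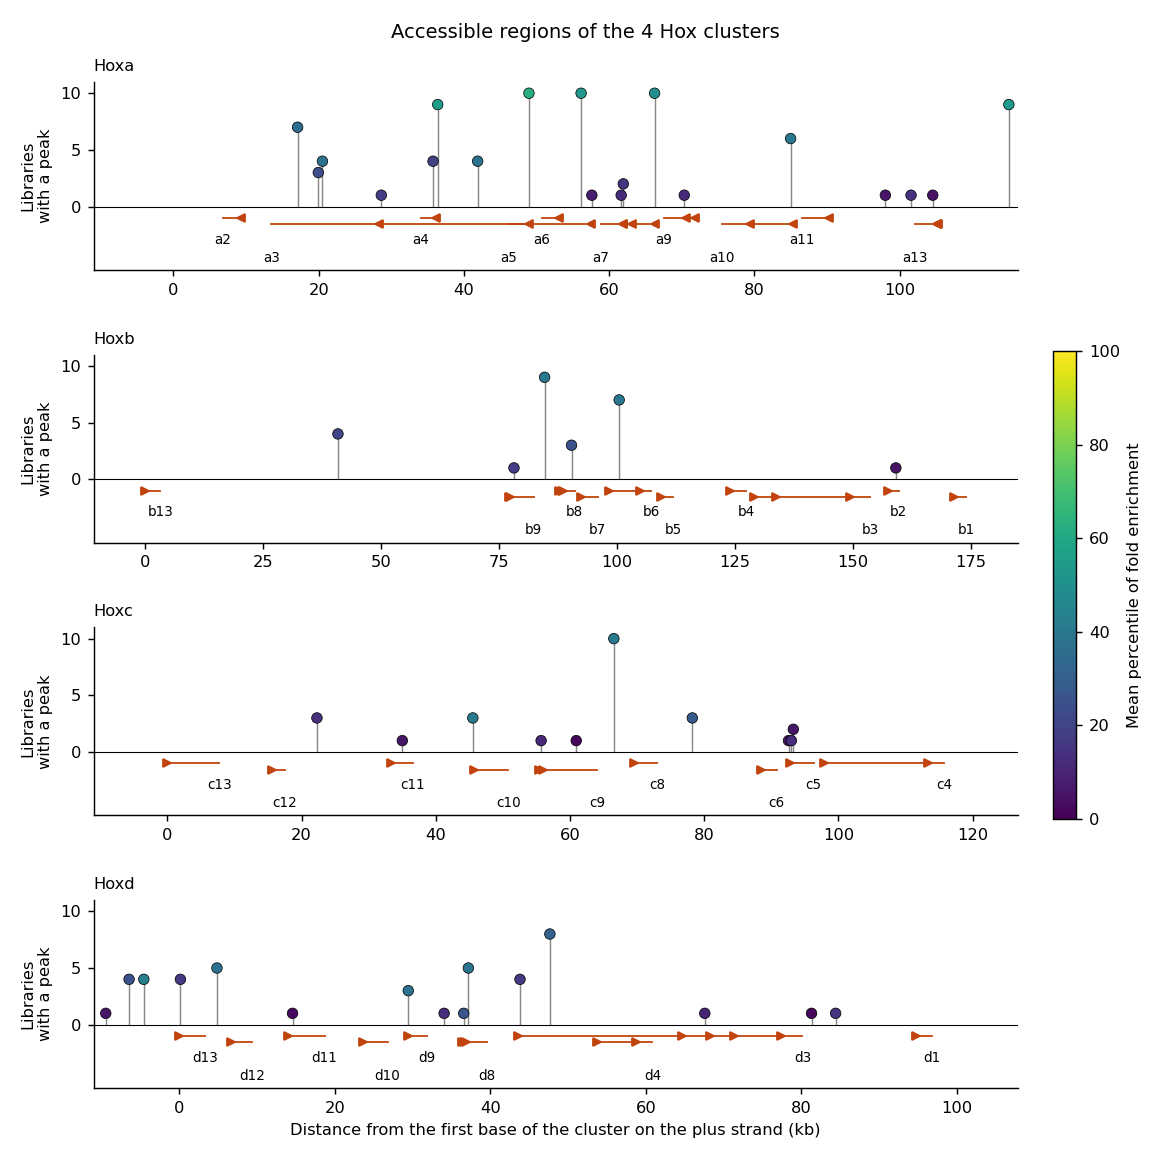
Position of 50 of the Hox peak regions within their clusters (x axis, kb within the window). The height of a stem is the number of libraries with a peak, its colour the mean percentile of fold enrichment, and the bars below are the genes with arrows at their starts. Tall stems crowd the Hoxa cluster, whereas Hoxb is nearly empty over 193.941 kb.

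Promoters were then read gene by gene, with each summit counted for the protein-coding gene with the nearest start within 3000 bp. Only 4 of the 39 Hox genes (10.3%), Hoxa3, Hoxa5 and Hoxa7 among them, had a promoter peak in all 10 libraries, against 54.1% of all protein-coding genes. No promoter peak in any library was found for 16 Hox genes (41.0%), against 27.6% of all genes. All 4 constant promoters belonged to Hoxa. Genes with no peak under this rule were Hoxa2, Hoxa6 and Hoxa11 in Hoxa, Hoxb1, Hoxb3, Hoxb4, Hoxb5, Hoxb7 and Hoxb13 in Hoxb, Hoxc4, Hoxc6, Hoxc12 and Hoxc13 in Hoxc, and Hoxd1, Hoxd4 and Hoxd10 in Hoxd. A peak nearer to another gene was not counted for them, and only starts of protein-coding transcripts were used. Within 3000 bp of the Hoxb7 start, for example, a region in 3 libraries was counted for Hoxb8. With each summit counted for every gene within 3000 bp, 4 Hox genes still had a peak in all 10 libraries. The number with none was not recounted in that way. Between these ends, 12 genes had a peak in 1 to 4 libraries and 7 in 5 to 9.

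The order of the genes along the body axis was compared as well. Of the 12 genes of groups 1 to 4, which act in the hindbrain, 7 had no promoter peak and 2 had one in all 10 libraries. Of the 11 genes of groups 5 to 8, 4 had none and 2 had one in all 10 libraries. Of the 16 genes of groups 9 to 13, which pattern the posterior trunk and limbs, 5 had none and 0 had one in all 10 libraries. Each posterior gene with a promoter peak other than Hoxa10 and Hoxd12 had it in 1 to 4 libraries. These counts are a description, since neighbouring genes share peaks and starts.

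**Figure D2:**
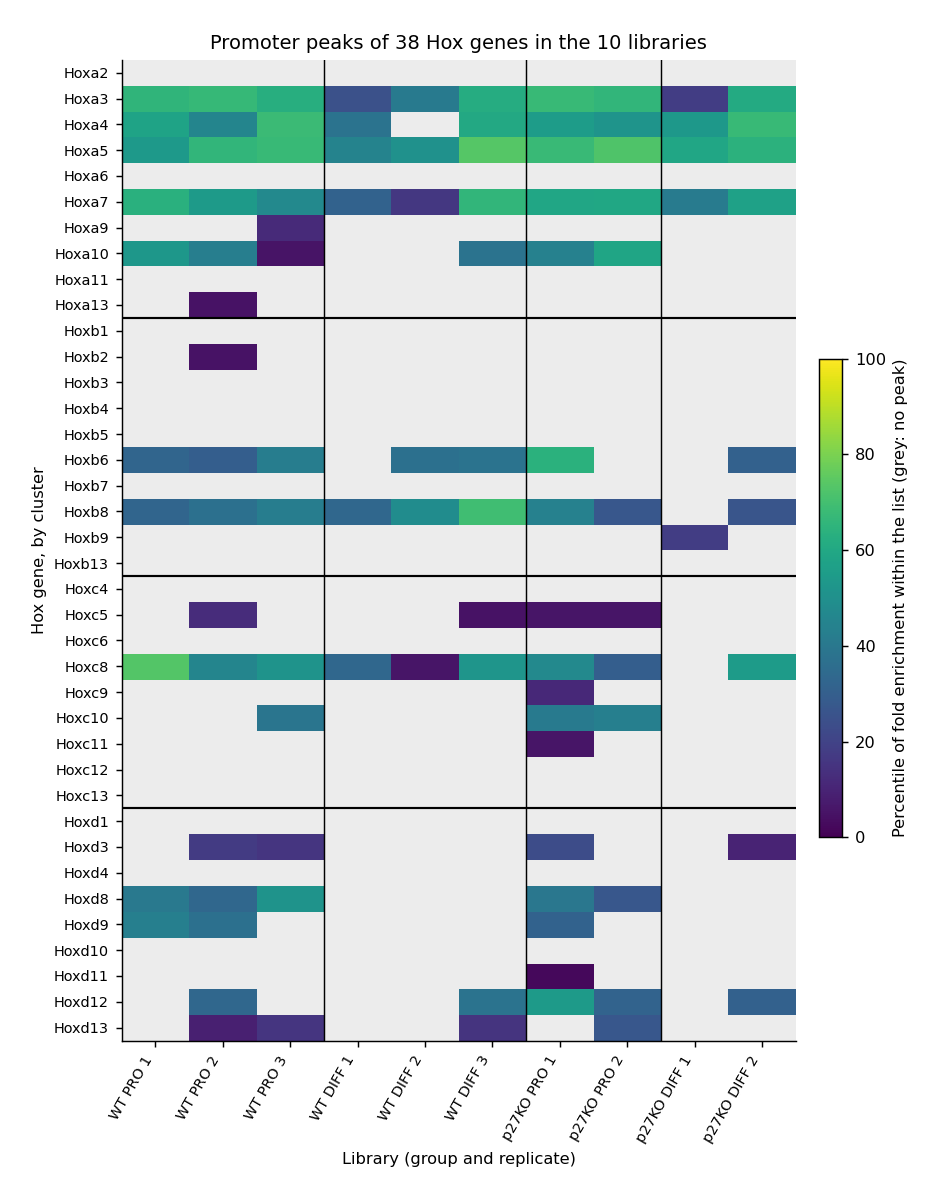
Percentile of the promoter peak of 38 Hox genes (rows, by cluster) in each of the 10 libraries (columns, by group), with grey for no peak. Hoxa3, Hoxa5 and Hoxa7 are filled in all columns, and 16 rows are grey throughout.

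Hoxa5, a regulator of trunk and lung patterning, had a mean percentile of 62.0 ± 9.59 (SD, n = 10). Its peak lay 41 bp inside the gene and had a fold enrichment of 6.11, 7.90 and 7.44 in WT PRO, 5.06, 5.27 and 8.23 in WT DIFF, 7.62 and 8.55 in p27KO PRO and 6.13 and 7.74 in p27KO DIFF libraries. Hoxa7, a central gene of the cluster, was the lowest of the 4, with a mean percentile of 49.6 ± 15.8 (SD, n = 10). Its peak lay 5 bp inside the gene and had a fold enrichment of 7.41, 6.35 and 5.21 in WT PRO, 4.24, 3.47 and 6.89 in WT DIFF, 6.28 and 6.47 in p27KO PRO and 4.77 and 6.82 in p27KO DIFF libraries. In both genes the values of PRO and DIFF libraries overlapped in WT.

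Hoxa3, which patterns pharyngeal organs, had a mean percentile of 53.5 ± 18.5 (SD, n = 10). Its constant region (chr6:52211343-52212143) lay 1388 bp inside an alternative start that sits between Hoxa6 and Hoxa7, and with a promoter window of 1000 bp Hoxa3 had a peak in 2 libraries. Over all genes with a promoter peak in all 10 libraries the median percentile was 83.2, against 57.7 for the 4 Hox genes. Hoxa3, Hoxa5 and Hoxa7 thus ranked near the middle of their lists, each with a mean below that median.

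The next promoters had a peak in 5 to 9 libraries. Hoxa4 and Hoxb8 had one in 9, Hoxc8 in 9, Hoxb6 in 7, Hoxa10 in 6, and Hoxd8 and Hoxd12 in 5. The Hoxb6, Hoxb8, Hoxc8 and Hoxd12 peaks lay more than 1000 bp from the start. The Hoxc8 region (chr15:102987297-102987788), 2973 bp upstream of that gene and within an annotated Hoxc5 intron, had a peak in all 10 libraries, 1 of them with its summit beyond 3000 bp. Its percentile ran from 5.50 in a WT DIFF library to 73.1 in a WT PRO library. In the group with 1 to 4 libraries, Hoxc10, with 3, had a mean percentile of 40.9 ± 2.20 (SD, n = 3), and Hoxc5, with 4, had 7.27 ± 3.76 (SD, n = 4).

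CpG-rich promoters are accessible in most cell types, so the Hox promoters were set beside genes with a like base composition. The ratio of observed to expected CpG was counted in the 1001 bp centred on a start, taking for each gene the annotated start with the highest ratio. Its median was 0.722 for the Hox genes and 0.614 for all genes. Among the 11192 other genes with a ratio of 0.6 or more, 81.1% had a promoter peak in all 10 libraries and 4.12% had none. Of the 28 Hox genes in this class, 4 (14.3%) had one in all 10 and 9 (32.1%) had none. Below a ratio of 0.6, 25.9% of 10591 other genes and 0 of 11 Hox genes had a peak in all 10 libraries, and 52.3% of these genes and 7 of the Hox genes had none.

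**Figure D3:**
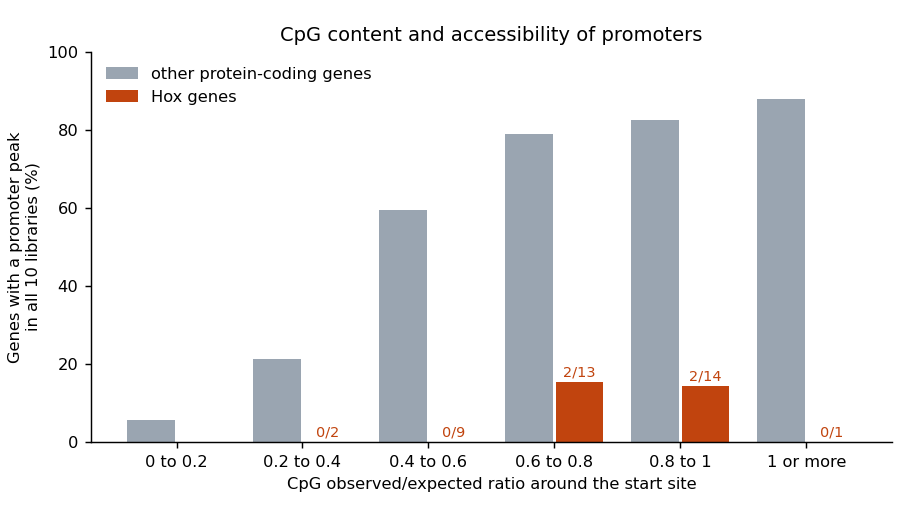
Share of genes with a promoter peak in all 10 libraries (y axis, percent) by the CpG ratio around the start (x axis), for Hox genes and for all other protein-coding genes. The share of other genes climbs from 5.69% to 88.0% over the classes, and the Hox share reaches 15.4% at its highest.

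The surroundings of the clusters were checked for peaks. The nearest protein-coding gene outside each end of the windows had a promoter peak in all 10 libraries at 5 of 8 ends (Skap2, Calcoco1, Smug1, Lnpk and Mtx2). The others were Evx1 with 1 library, Ttll6 with 2 and Skap1 with 0. Evx1 and Evx2 are homeobox genes next to Hoxa and Hoxd, and Evx2 had a peak in 4 libraries. The Evx2 peak lay inside the Hoxd window and is itself 1 of the 51 Hox regions. The ParaHox gene Gsx1 had a peak in all 10 libraries, Pdx1 in 5 and Gsx2, a factor of the ventral forebrain, in 2. The 5 microRNA genes of the clusters, Mir10a, Mir10b, Mir196a-1, Mir196a-2 and Mir196b, had their nearest tested region 8274 to 22490 bp away.

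The partners and regulators of the Hox genes had more constant promoters. All 9 cofactor genes of the PBX, MEIS and PKNOX families, among them Meis1, Meis2 and Pknox1, had a promoter peak in all 10 libraries, with a median percentile of 78.2. So did 21 of 27 upstream and chromatin regulators, among them the Polycomb genes Ezh2, Eed and Suz12 and the retinoic acid receptors Rara, Rarb and Rarg, with a median of 76.8. The other 6 were Cdx1 and Cdx4 with 0 libraries, Cdx2 with 3, the retinoic acid enzymes Cyp26a1 and Cyp26c1 with 2 each and Aldh1a2 with 5. Of 20 forebrain homeobox and regional genes such as Emx2 and Dlx2, 11 had a peak in all 10 libraries, with a median of 64.9, and 1 had none.

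The comparison of PRO with DIFF asked whether Hox accessibility moved at mitogen withdrawal. The number of Hox peaks was 20, 24 and 27 in the WT PRO libraries (23.7 ± 3.51, SD, n = 3) and 10, 10 and 21 in WT DIFF (13.7 ± 6.35, SD, n = 3). In p27KO it was 36 and 22 in PRO (29 ± 9.90, SD, n = 2) and 11 and 15 in DIFF (13 ± 2.83, SD, n = 2). Of the 5 DIFF lists, 4 were shorter than every PRO list. Per 10000 listed peaks, the 5 PRO libraries held 2.49 to 3.92 Hox peaks and the 5 DIFF libraries 1.62 to 2.37, with no overlap. When only the strongest 57000 peaks of each list were kept, the numbers were 13, 16 and 14 in WT PRO, 10, 9 and 11 in WT DIFF and, for p27KO, 14 and 11 in PRO and 7 and 14 in DIFF. The PRO means then fell to 14.3 in WT and 12.5 in p27KO, and PRO and DIFF overlapped in p27KO.

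By cluster, Hoxd held 5 to 10 peaks in PRO and 0 to 5 in DIFF libraries, Hoxc 2 to 7 and 1 to 2, Hoxb 2 to 5 and 1 to 3, and Hoxa 9 to 16 and 7 to 11. The ranges of PRO and DIFF met or overlapped in each of the 4 clusters. Of the 51 regions, 47 had a peak in a PRO library and 26 in a DIFF library, with 25 (49.0%) in PRO alone and 4 (7.84%) in DIFF alone. Of all 137454 regions, 25.7% had a peak in PRO alone and 16.6% in DIFF alone. Among the 21 Hox regions found in a single library, 17 (81.0%) came from PRO, against 57.8% of all such regions. Measured against length, the clusters held 3.50 to 6.30 peaks per 100 kb in PRO and 1.75 to 3.67 in DIFF, where the genome held 2.80 to 3.36 and 2.10 to 3.25.

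**Figure D4:**
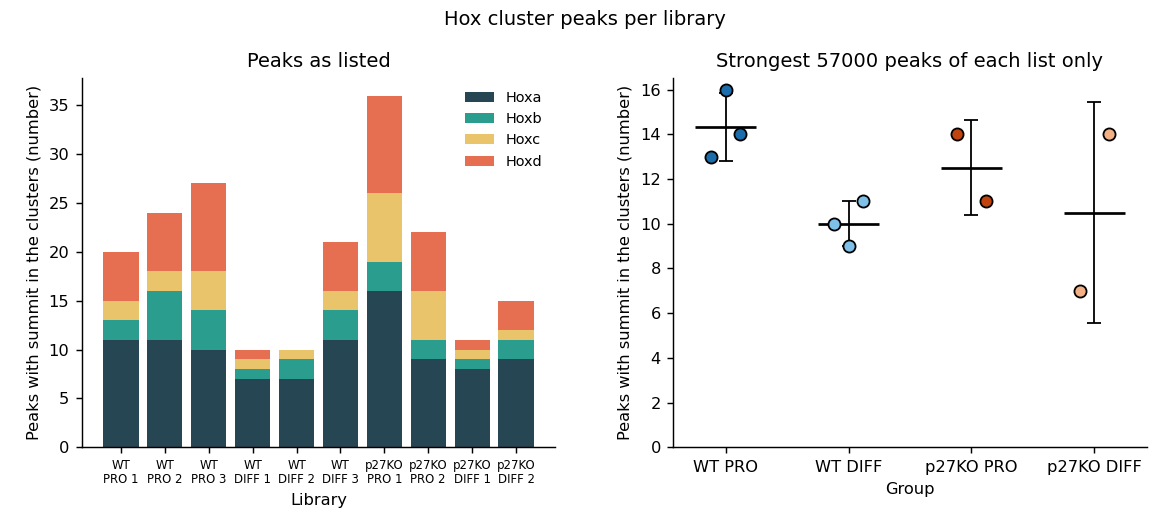
Number of Hox cluster peaks in each library (y axis), stacked by cluster on the left as listed, and on the right among the strongest 57000 peaks of each list with the mean and SD of each group. The WT PRO bars reach 20 to 27 and the WT DIFF bars 10 to 21, and the gap is smaller on the right.

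Complete separation of the states was counted in the 30 Hox regions found in 2 or more libraries. In WT, 1 of the 30 (3.33%) had a peak in every PRO and no DIFF library, against 4.32% of all 99231 such regions. None had the reverse, against 1.86%. In p27KO, 7 of the 30 (23.3%) had a peak in every PRO and no DIFF library, against 10.9%, and none had the reverse, against 3.32%. Separation is easier to meet with 2 libraries a group than with 3. In WT and p27KO together 1 of the 30 was separated, against 2.61%, and this was Hoxd8. Genes with a promoter peak in every PRO and no DIFF library of p27KO were Hoxa10, Hoxc5, Hoxc10 and Hoxd8. The share of all protein-coding genes with this pattern was not counted, so these names are a description. Hoxa10 and Hoxc5 each also had a peak in 1 WT DIFF library. The Hoxc5 pileups in p27KO PRO were 11 and 11, where the weakest listed pileup was 10.

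Hoxd8, a central gene of the Hoxd cluster, had its peak at chr2:74705164-74705875. The summit lay in a 5′ UTR exon, 339 bp downstream of the nearest annotated start of the gene. The fold enrichment was 4.99, 4.53 and 5.61 in WT PRO and 4.55 and 3.92 in p27KO PRO, and no peak was listed in any of the 5 DIFF libraries. The PRO pileups at the summit were 17, 19, 22, 18 and 15, against weakest listed pileups of 9 to 11. The peak stood at percentiles of 27.2 to 51.4, so even in PRO it was of middling rank.

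The ranks were tested with limma over regions that had a peak in 5 or more of the libraries, with Benjamini-Hochberg adjustment over all of them. Changes are differences of normal scores of the within-list rank, in which all regions without a peak share the lowest rank, and are not log2 folds. Of the 51 Hox regions 14 passed this filter, 8 of them in Hoxa, and of the 39 genes 11 had a promoter that passed. In WT, 1 of the 14 Hox regions changed between PRO and DIFF, against 19.2% of the 70627 regions tested, and 1 of 11 Hox promoters, against 3.55% of 14947. Both were Hoxd8, whose region fell by 0.99 ± 0.22 (SE, adjusted p = 0.0106, limma) and as a promoter by 0.99 ± 0.20 (SE, adjusted p = 0.0190, limma). Hoxd8 passed the filter through its PRO peaks alone, so its place among the tested regions already needed a difference. Its DIFF scores were all the shared lowest score, which depends on how many tested regions a list lacks. Their spread is therefore one between lists and does not measure accessibility at Hoxd8. The change was -0.77 without WT DIFF replicate 3 and -1.11 without WT DIFF replicate 2, both without a Hoxd8 peak. Hoxd8 was not among the regions tested when a peak was required in all 10 libraries or among the strongest 57000 peaks of a list. The promoter call was lost without WT PRO replicate 1 (adjusted p = 0.0526, limma) or replicate 3 (adjusted p = 0.0690, limma).

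In p27KO, 0 of the 14 Hox regions changed, against 12.3% of regions, and 0 of the 11 promoters, against 1.36% of promoters, by limma. At an unadjusted p under 0.05 there were 3 of the 14 regions and 2 of the 11 promoters, against 25.7% of all regions and 16.4% of all promoters. Hoxd8 had a change of -0.63 ± 0.28 in p27KO (SE, adjusted p = 0.177 as a region and 0.233 as a promoter, limma). The largest change was at Hoxa10, a posterior gene known from the reproductive tract and limb, with -1.11 ± 0.35 (SE, adjusted p = 0.0628 as a region and 0.120 as a promoter, limma). Its fold enrichment was 4.79 and 6.37 in p27KO PRO with no peak in p27KO DIFF, and 6.09, 5.21 and 2.93 in WT PRO with 4.23 in 1 of 3 WT DIFF libraries. Like Hoxd8, Hoxa10 met the filter through its PRO peaks alone. Its p27KO DIFF scores were the shared lowest score. The region 9754 bp upstream of Hoxa13 had -1.03 ± 0.38 (SE, adjusted p = 0.113, limma), with fold enrichments of 11.3 and 4.65 in p27KO PRO and 4.54 in 1 of 2 p27KO DIFF libraries. These calls turned on single libraries: the Hoxa10 region passed without WT PRO replicate 3 (adjusted p = 0.0277, limma) and the Hoxa13 region without p27KO PRO replicate 2, with a change of -1.67 (adjusted p = 0.0216, limma).

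The other promoters gave smaller values. In WT, 8 of the 11 tested Hox promoters had a lower rank in DIFF, with a median change of -0.15, against 0.12 over all promoters. In p27KO the medians were -0.05 and 0.14, and again 8 of 11 were lower. In WT the promoters after Hoxd8 by p were Hoxb8, Hoxa4, Hoxa10 and Hoxa3. Hoxb8 had 0.57 (adjusted p = 0.121, limma) and Hoxa4 -0.45 ± 0.26 (SE, adjusted p = 0.310, limma). Hoxa10 had -0.44 ± 0.26 (SE, adjusted p = 0.324, limma) and Hoxa3 -0.35 ± 0.21 (SE, adjusted p = 0.326, limma). With the filter set at 2 libraries, the Hoxb8 promoter was read from another region, 1907 bp from its start, and had -0.38. Single libraries weighed on the values of Hoxa4, Hoxa10 and Hoxa3. Hoxa4 in WT was -0.11 without WT DIFF replicate 2 and -0.29 without WT PRO replicate 3, Hoxa10 was -0.22 without WT PRO replicate 1 and -0.75 without WT PRO replicate 3, and Hoxa3 was -0.22 without WT DIFF replicate 1. In p27KO, Hoxa3 had -0.43 ± 0.25 (SE, adjusted p = 0.410, limma), or 0.027 without p27KO DIFF replicate 1 and -0.88 without p27KO DIFF replicate 2, Hoxa4 0.45 ± 0.31 (SE, adjusted p = 0.488, limma) and Hoxd12 -0.42 ± 0.36 (SE, adjusted p = 0.579, limma). Leaving out 1 of the 4 p27KO libraries put Hoxd12 between -0.81 (without p27KO DIFF replicate 2) and -0.02 (without p27KO DIFF replicate 1), with -0.18 and -0.65 without p27KO PRO replicates 1 and 2. Of the tested regions away from promoters, the Hoxd3 intron, with a peak in 8 libraries, had 0.07 in WT and 0.18 in p27KO, and a region 7852 bp upstream of Hoxa2, in a UTR exon of Hoxa3, with a peak in 7 libraries, had 0.34 and -0.15. Neither passed in limma.

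**Figure D5:**
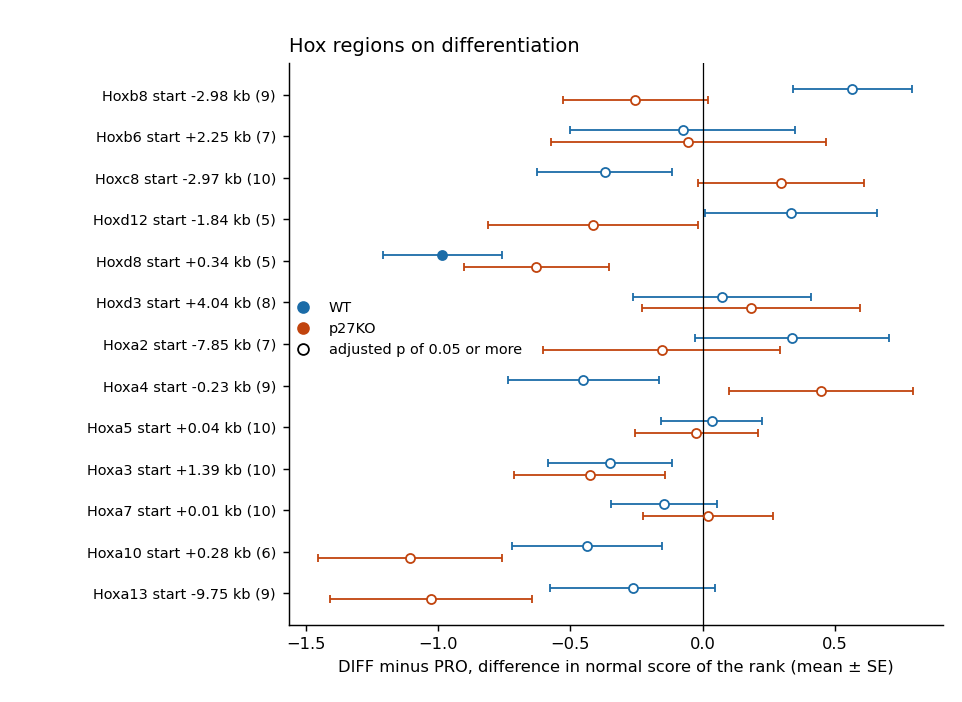
Change from PRO to DIFF (x axis, difference of normal scores of the within-list rank, with SE bars) of 13 of the tested Hox regions in WT and in p27KO, each labelled by nearest gene, distance from its start and number of libraries with a peak. Filled points passed an adjusted p of 0.05 and empty points did not, and the filled point is Hoxd8 in WT at -0.99.

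The genotypes were compared within each state and for their difference. Between p27KO and WT, 0 Hox regions and 0 Hox promoters passed in limma, either in DIFF, against 0.0156% of regions and 0.0335% of promoters, or in PRO, against 0.034% and 0.0401%. For the interaction of genotype and state, 0 of the 14 regions and 0 of the 11 promoters passed, and the share was 0% of all regions and 0% of all promoters. At an unadjusted p under 0.05 the interaction gave 1 of the 14 Hox regions, against 3.91% of all regions. It gave 2 of the 11 Hox promoters, against 4.01% of all promoters. Whether the change at Hoxd8 or Hoxa10 differs between WT and p27KO was thus not shown.

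Hoxb8, a central gene that also acts in blood cells, had the lowest p of the tested Hox regions in the genotype comparison in DIFF. Its upstream peak had a fold enrichment of 4.30, 5.09 and 7.41 in WT DIFF, and 4.26 in 1 of 2 p27KO DIFF libraries. In PRO it was 4.43, 4.76 and 4.88 in WT and 4.79 and 3.92 in p27KO. The difference of p27KO and WT in DIFF was -1.02 (adjusted p = 0.648 as a region and 0.403 as a promoter, limma), so it did not pass.

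The promoters of the other lists were read against the same shares of all promoters, 3.55% in WT and 1.36% in p27KO. Of the 9 cofactor promoters, Pknox1, which encodes a HOX partner, rose in WT by 0.60 ± 0.13 (SE, adjusted p = 0.0304, limma), and 0 passed in p27KO. Of the regulators 22 were tested and 0 passed in either genotype. Of the forebrain list 16 were tested, and Sp8, a zinc finger gene of olfactory interneuron precursors, fell by 0.83 ± 0.20 in WT (SE, adjusted p = 0.0406, limma). Of the 3 tested microglia markers P2ry12 fell by 0.79 ± 0.15 in WT (SE, adjusted p = 0.0156, limma), whereas Aif1 and Csf1r had changes of 0.14 and 0.66 that did not pass, and the median of the list was 0.14.

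The sequence at the summits was examined for what the Hox regions share. In the 301 bp around the summit the 14 tested Hox regions had a median GC content of 60.6%, against 50.8% over the tested regions, and a median CpG ratio of 0.713, against 0.251. An exact CTCF core match, searched by name on both strands, was found in 0 of 14, against 4.62% of 70491 regions. With up to 1 mismatch it was found in 3 of 14 (Hoxa5, Hoxa7 and Hoxa10), against 14.9%. With up to 2 mismatches, the form capitalised above, it was found in 9 of 14 (64.3%), against 30.6%, and 29.8% among the 54792 regions within the GC range of the Hox regions. Over all 51 Hox regions it was found in 22.

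The other motifs were searched on both strands too. The HOX-PBX site TGATNNAT was found in 2 of 14, against 8.34% of regions. The SOX site AACAAAG was found in 1 of 14, against 9.46%, the AP-1 site TGANTCA in 0 of 14, against 10.8%, and the TATA box TATAAA in 2 of 14, against 9.83%. Such matches describe letters in a window and do not show binding.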

How the data were processed

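ATAC-seq was measured in 10 libraries, whose groups and replicate numbers came from the sample titles. The authors used Cutadapt and Trimmomatic to clean the reads, Bowtie2 to map them to GRCm38, Picard to mark duplicates and MACS2, in narrow mode with no model and an FDR of 0.05, to call peaks in each library. Versions, read shift and extension size are not given in the sources used here. The deposited fold enrichment is the ratio of summit pileup to local background. The −log10 p-value and −log10 q-value in the deposited lists are those of the authors' peak caller, and the lowest −log10 q-value was 1.30. The read depth of a library is not in the lists, so its precision is unknown. The lists held 57534 to 91801 peaks.

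Overlapping peaks (at least 1 bp) were merged into regions. A summit was counted for the gene with the nearest GENCODE M21 start of a protein-coding transcript within 3000 bp. Regions were ranked in each list by their highest fold enrichment, and normal scores of the ranks were tested in limma 3.58.1 (R 4.3.3) with 1 mean for each group and Benjamini-Hochberg adjustment at 0.05 over all regions, or all promoters, with a peak in at least 5 libraries. The study's read-based test needs alignments, which were not used here. The test was checked on simulated data. Pileups were solved from fold enrichment and p-value (tolerance 0.001 on the −log10 scale). CpG counts, motifs and printed bases were read from GRCm38, in Python 3.11.15.

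Counts cover all 39 Hox genes, of which 1 is not reported here by itself. The Hox genes, the gene lists and the tests were chosen with earlier results of these data known. Values are named for each Hox promoter or region past the threshold, the highest and lowest constant promoter among those reported, promoters in 0 libraries, the 5 smallest p in each genotype and promoters that separated PRO from DIFF. Hoxa13, Hoxb6, Hoxb8 and Hoxc8 regions, Sp8, Pknox1 and P2ry12 outside that rule were named after their values were seen. Replicate numbers gave correlations of deviations of 0.033 to 0.065 in WT and -0.14 in p27KO and were not taken to pair libraries. Alternatives were other filters, rankings, region definitions, subsets of libraries and a replicate block.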

Additional observations from a re-analysis of the deposited data

How the results depend on the processing

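Peak lists carry no read depth, so a weak promoter near the limit of detection can appear or vanish with depth alone. Hoxd8 was 1 region call in WT under the main settings. It was not tested when regions needed a peak in all 10 libraries or when the top 57000 peaks were used. The 0 Hox calls of these settings therefore say nothing about Hoxd8. The number of promoter calls went from 1 to 0 under both settings for the same reason. Hoxd8 was tested, but did not pass, when ranks were taken among promoter regions alone (adjusted p = 0.0501, limma, added after seeing the data). The Hoxd8 promoter change was then -0.79. Leaving out 1 library gave 0 to 1 Hox promoter calls in WT and 0 to 1 Hox region calls in p27KO. The p27KO region count was also 1 when only the groups compared were fitted (Hoxa10, adjusted p = 0.0492, limma). Hoxa10 met the filter through its PRO peaks alone, and its p27KO DIFF scores were the shared lowest score. That p-value therefore does not measure the spread of accessibility at Hoxa10 in p27KO DIFF. With a peak in at least 2 libraries, the Hoxb8 promoter in WT was read from another region, 1907 bp from its start, and had -0.38. Hoxa3 in p27KO was reversed to 0.027 without p27KO DIFF replicate 1, with -0.88 at the other end of that range.

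Among the strongest 57000 peaks the mean Hox peak number was 14.3 in WT PRO and 12.5 in p27KO PRO, and the separated p27KO regions fell from 7 to 2. Leaving out 1 library gave 1 to 3 separated regions in WT (3 without WT PRO replicate 1, 2 without WT PRO replicate 3 and 2 without WT DIFF replicate 3). In p27KO it gave up to 12 regions with PRO peaks alone (without p27KO DIFF replicate 2) and 0 to 1 with DIFF peaks alone (1 without p27KO DIFF replicate 1). Hox genes with a promoter peak in all 10 libraries numbered 4, 3 with the top 57000 peaks or a 1000 bp window, and 6 without p27KO DIFF replicate 1. The cause of these shifts was not tested.

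The replicate block gave 1 Hox region and 1 Hox promoter call in WT and 0 in p27KO, and changed no other Hox call. Since the p27KO correlation was negative, the pairing was also crossed in p27KO, an alternative added after seeing the data. It was read for the change from PRO to DIFF in p27KO only. There it gave 0 Hox calls, with 8579 regions and 208 promoters called in that comparison. In total 255 values for counts and group means kept their size and 18 moved. A count kept its size when it stayed within a fixed ratio of the main value, and a mean when it stayed within its SD. Many of the counts came from the genotype and interaction comparisons. Hox calls there were 0 throughout and few features were called at all, so the tally says little about them.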
